A study of Rattus norvegicus with 14 samples.

Results

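The voltage-gated calcium channel subunits described here are 10 genes of the rat: Cacna1a, Cacna1b, Cacna1c, Cacna1d, Cacna1e and Cacna1g, which encode pores, Cacna2d1, and Cacnb2, Cacnb3 and Cacnb4. They were represented by every probe set whose platform annotation names 1 of these genes alone, 19 of the 15923 probe sets on the array, and the genes are 10 of 10411 named on it. RNA came from the hippocampal subfield CA3 of 14 male Long-Evans rats aged 3 to 4 months, with 7 animals in each group and an array for each animal. All rats had learned a standard water maze and, 2 to 3 weeks later, swam 8 trials spaced 8 min apart in a new maze. The learning activated group (learning) was given orienting cues, and its visible platform kept 1 position. The control group had a visible platform that moved between trials, and no informative cues. A 90 s trial without a platform followed 1 h later in both groups, and tissue was taken directly after it. The comparison asks which CA3 transcripts differ after rapid encoding of a new place, and cue presence and platform movement cannot be told apart from encoding in it. CA3 was dissected as whole tissue, so fewer cells of a type and less RNA per cell cannot be told apart either.

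Voltage-gated calcium channels open on depolarization and let calcium into the neuron, where it triggers transmitter release, dendritic spikes and signalling to the nucleus. Each high-voltage-activated channel is a pore-forming alpha1 subunit with a cytoplasmic beta subunit and an extracellular alpha2delta subunit, which help bring the pore to the membrane and tune its gating. In CA3 such channels supply calcium at the recurrent and Schaffer collateral terminals and take part in the burst firing of pyramidal neurons.

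The alpha1 genes of the P/Q-type pore (Cacna1a) and the N-type pore (Cacna1b) serve transmitter release side by side, and their start regions are shown because Cacna1a was the member called in the comparison and Cacna1b is the member closest to it in role. Each window runs from 250 bases before to 50 bases after the start of a RefSeq gene model of build GRCr8 and is written 5′ to 3′ on the gene's minus strand. The Cacna1a window lies at chr19:40650419-40650718 and the Cacna1b window at chr3:27944236-27944535. The last 50 bases of the Cacna1a window begin with atg, the letters of a start codon. Whether this gene model begins at the coding sequence rather than at the transcript start was not tested. Capitals mark the GC box GGGCGG and the cyclic AMP response element half-site TGACG, searched on both strands. The full element TGACGTCA, which contains the half-site, was searched as well.
Cacna1a: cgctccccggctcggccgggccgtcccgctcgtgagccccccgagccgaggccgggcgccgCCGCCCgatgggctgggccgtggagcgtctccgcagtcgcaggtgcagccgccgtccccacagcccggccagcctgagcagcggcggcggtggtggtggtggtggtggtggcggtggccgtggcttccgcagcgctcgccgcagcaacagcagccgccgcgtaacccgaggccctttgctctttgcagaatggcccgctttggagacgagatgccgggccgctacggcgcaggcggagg
Cacna1b: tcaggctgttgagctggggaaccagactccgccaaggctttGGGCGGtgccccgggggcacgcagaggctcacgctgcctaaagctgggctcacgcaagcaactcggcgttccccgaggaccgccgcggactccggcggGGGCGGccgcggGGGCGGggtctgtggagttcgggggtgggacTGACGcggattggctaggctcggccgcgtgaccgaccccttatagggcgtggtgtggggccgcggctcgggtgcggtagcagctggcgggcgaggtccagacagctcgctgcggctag

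The Cacna1a window held 1 GC box and no half-site, and the Cacna1b window held 3 GC boxes and 1 half-site. GC content was 76.0% and 72.0%, against a median of 51.7% over all 33469 windows. Of 11 windows found for 8 of the 10 genes, 8 held a GC box, 4 held a half-site and 0 held the full element. Over all windows the shares were 33.1% for the GC box, 21.2% for the half-site and 1.83% for the full element. Of the windows 3 are of Cacna2d1 and overlap. Cacna1g and Cacnb4 were not matched. These matches describe letters in short windows and are not sites of binding. The Cacna1a window may hold sequence next to a start codon, so its counts and GC content are not read as those of a promoter.

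Values are log2 expression levels. A probe set was tested when its mean over the 14 arrays was at or above the 40th percentile of all probe sets, a level of 3.88, and dimmer ones are called dim. Of the 19 channel probe sets 11 were tested and 8 were dim. Of the 10 genes 8 had a tested probe set, while Cacna1e and Cacnb4 had dim ones alone. The threshold for a call was an adjusted p of 0.05 in limma, adjusted by Benjamini-Hochberg over all 9520 tested probe sets, and "rose" is used only of called ones. A level is not read as an amount of transcript across probe sets, since probes differ in affinity. Brightness serves for the dim filter and for comparing probe sets within genes, as given below. Otherwise it only chooses which probe set stands for a gene and which gene of a list is named.

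Among the channel subunits, Cacna1a rose in the learning group at its brightest probe set, and no other channel probe set passed. That is 1 of 11 tested probe sets, or 9.09%, all of it upward. The share of all tested probe sets called was 3.35% in either direction and 2.55% upward. With 11 probe sets tested, 1 call is too few to read as a property of the family. The difference was above 0 at 8 of the 11 and below 0 at 3, with a median of 0.10, while over all tested probe sets 42.0% lay above 0 and the median was -0.02. Unadjusted p-values lay under 0.05 at 2 of the 11, both of Cacna1a, and at 19.9% of all tested probe sets.

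**Figure D1:**
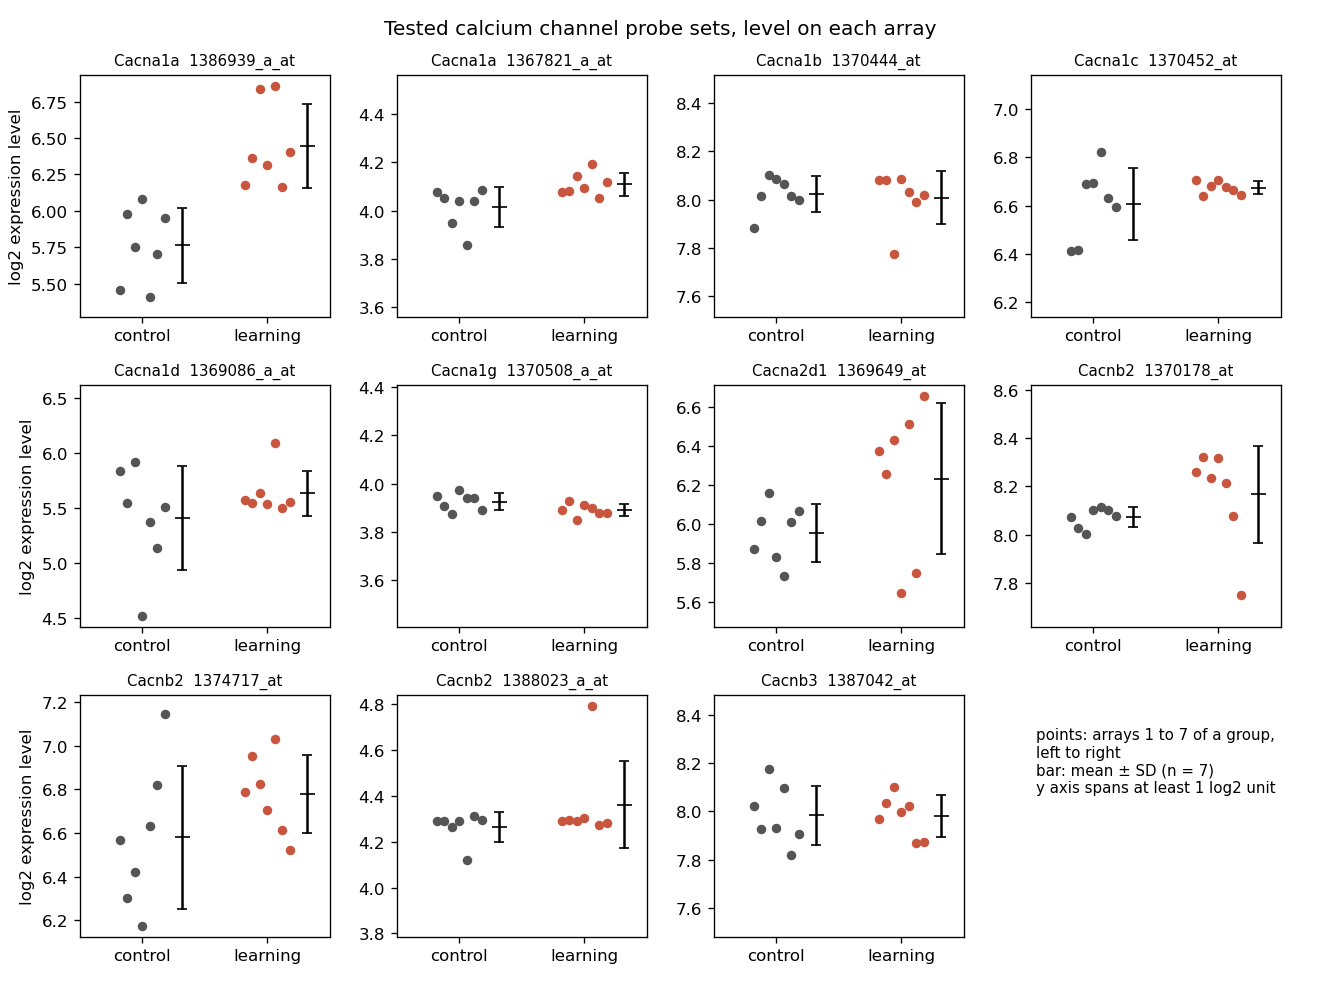
Log2 expression level of the 11 tested calcium channel probe sets, 1 panel each, in 7 control arrays (grey) and 7 learning arrays (red); bars give mean ± SD. At Cacna1a probe set 1386939_a_at the lowest learning array (6.17) lies above the highest control array (6.08), and in the other panels the groups overlap.

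Cacna1a encodes the pore of P/Q-type channels, which drive fast transmitter release at most central synapses. At probe set 1386939_a_at the control arrays read 5.46, 5.98, 5.75, 6.08, 5.41, 5.71 and 5.95 for replicates 1 to 7. The learning arrays read 6.18, 6.36, 6.84, 6.31, 6.86, 6.17 and 6.40. Every learning array lay above every control array, with replicates 3 and 5 highest in the learning group and replicates 1 and 5 lowest in the control group. It was the 1 channel probe set without overlap. Of all tested probe sets 2.10% separated in either direction and 1.73% upward. The means were 6.44 ± 0.29 (SD, n = 7) in learning and 5.76 ± 0.26 (SD, n = 7) in control, a 1.60-fold difference. The log2 difference of 0.68 (SE 0.13, 95% confidence interval 0.40 to 0.97) had an adjusted p of 0.0140 in limma and held rank 89 by p, and 63 by upward size, among the 9520 tested probe sets.

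The other 3 Cacna1a probe sets did not pass. Probe set 1367821_a_at, close to the dim cutoff, ranged from 3.86 to 4.09 with a median of 4.04 in control and from 4.05 to 4.20 with a median of 4.09 in learning. The groups overlapped there, although all 7 learning arrays lay above the control mean, and the difference was 0.10 (SE 0.04, adjusted p = 0.195). Probe sets 1367822_at (2.07 in both groups) and 1398459_at (2.76 in both) were dim and had differences of 0.0021 and -0.0016. The annotation gives 1367821_a_at and 1367822_at the same source sequence, so these are not independent measures.

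The difference between the tested Cacna1a probe sets on each array was fitted with limma over all 1130 such pairs of 942 genes. The brighter minus the dimmer probe set was 1.75 ± 0.23 in control and 2.34 ± 0.24 in learning arrays (SD, n = 7 each) and did not overlap between groups. This difference of differences was 0.59 (SE 0.12, adjusted p = 0.00647 over all pairs). It was not called with the Gapdh ratio (0.49, adjusted p = 0.0619) or the probe set balance described below (0.49, adjusted p = 0.357) as covariate. The dimmer probe set lies near the dim cutoff. Whether flattening of its values enters this difference was not tested, so the fit is not read as probe sets responding differently. Of all pairs 17.6% were called, and in 2.92% the brightest probe set was the one that moved up relative to the other, as it did in Cacna1a. Cacna1a thus rose at 1 of its 4 probe sets.

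Measures of RNA and signal, including those that differed between the groups, are given beside this result. The Gapdh 3'/5' ratio, on a log2 scale, was 0.45 ± 0.05 in learning and 0.51 ± 0.06 in control arrays (two-sided exact permutation p = 0.0443). With 1 array left out, this p was under 0.05 in 6 of 14 exact permutation tests and reached 0.0956. The level of the spike-in controls was 5.45 ± 0.08 in learning and 5.38 ± 0.06 in control arrays (exact permutation p = 0.0414), and it too was under 0.05 in 6 of 14 tests with 1 array left out, reaching 0.0932. The hexokinase 3'/5' ratio was 1.30 ± 0.05 in learning and 1.53 ± 0.49 in control arrays (exact permutation p = 0.281). The actin 3'/5' ratio was 1.31 ± 0.03 in learning and 1.36 ± 0.15 in control arrays (exact permutation p = 0.460). With 1 array left out, the hexokinase p was under 0.05 in 1 of 14 tests and the actin p in 0. With the Gapdh ratio as covariate the Cacna1a difference was 0.54 and its call was lost (adjusted p = 0.124). The probe set balance, the mean over 348 other genes, with tested probe sets at least 2 log2 units apart, of the dimmest minus the brightest probe set, was -3.25 ± 0.03 in learning and -3.42 ± 0.11 in control arrays (exact permutation p = 0.000583, the smallest that 7 against 7 arrays can give). The balance did not overlap between groups (highest control array -3.34, lowest learning array -3.30). As a covariate it is thus confounded with group, and a fit with it cannot tell them apart. With the balance as covariate the Cacna1a difference was 0.48 (SE 0.20) and was not called (adjusted p = 0.525). In that limma fit 0 of the 9520 probe sets were called and 849 had an unadjusted p under 0.05. With the hexokinase 3'/5' ratio as covariate Cacna1a had 0.63 and remained called (adjusted p = 0.0340), as it did with the actin ratio (0.63, adjusted p = 0.0226) and with the spike-in level (0.74, adjusted p = 0.0356).

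Control replicate 5, the lowest array at both tested Cacna1a probe sets, stood highest of the 14 arrays in its 3'/5' ratio for Gapdh (0.64), hexokinase (2.57) and actin (1.65), and the lowest median correlation with the other arrays (0.989, the next lowest being 0.992). Control replicate 1, the second lowest at Cacna1a 1386939_a_at, had the lowest hexokinase ratio, 1.03. Without control replicate 5 the difference at 1386939_a_at was 0.62 and stayed called (adjusted p = 0.0233). Without control replicates 3 and 5, the arrays with the highest hexokinase and actin ratios, it was 0.61 and was no longer called (adjusted p = 0.0571). Over the 14 fits that left out a single array it ran from 0.61 to 0.73 and was called in all 14.

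**Figure D2:**
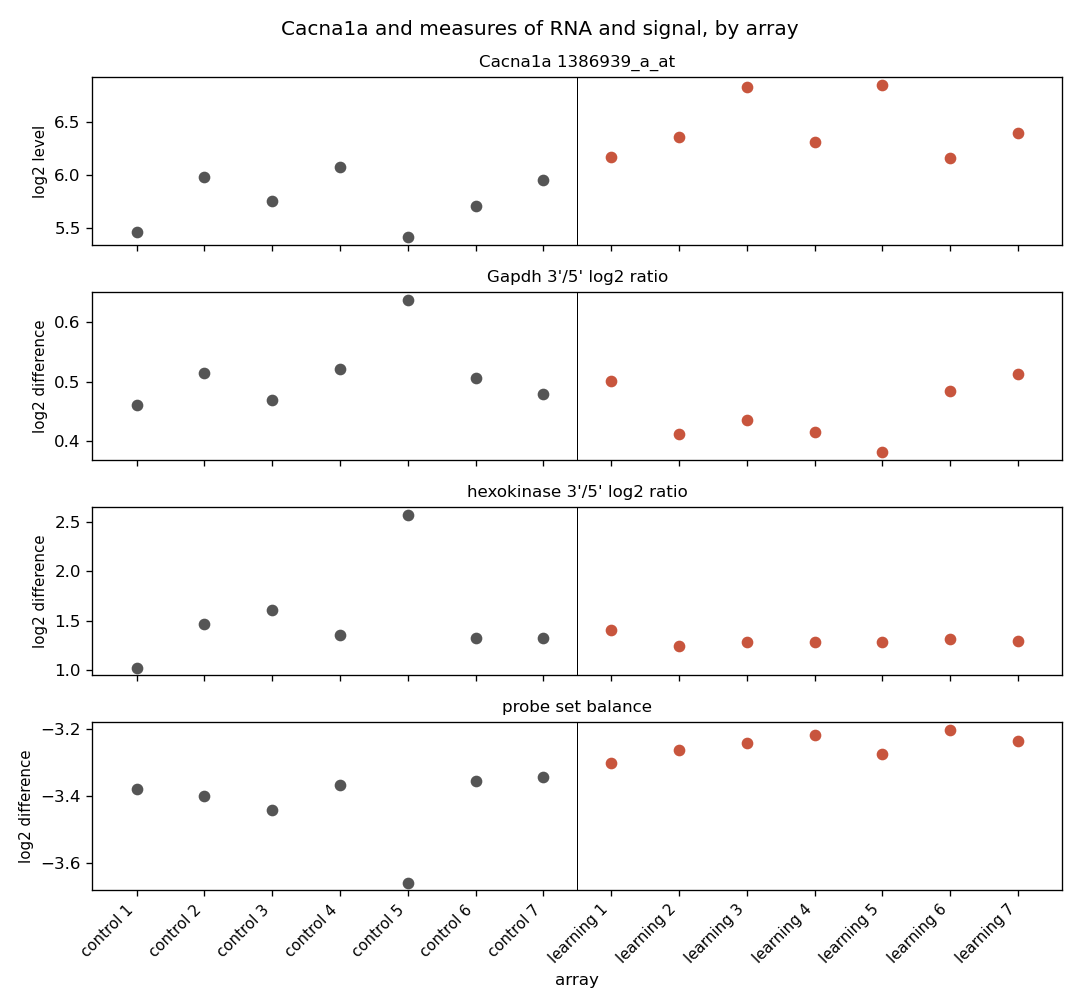
Level of Cacna1a at probe set 1386939_a_at (top) and 3 measures of RNA and signal on each of the 14 arrays, all on log2 scales; grey points are control and red points learning arrays. Control replicate 5 has the lowest Cacna1a level (5.41), the highest Gapdh and hexokinase ratios (0.64 and 2.57) and the lowest probe set balance (-3.66).

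**Figure D3:**
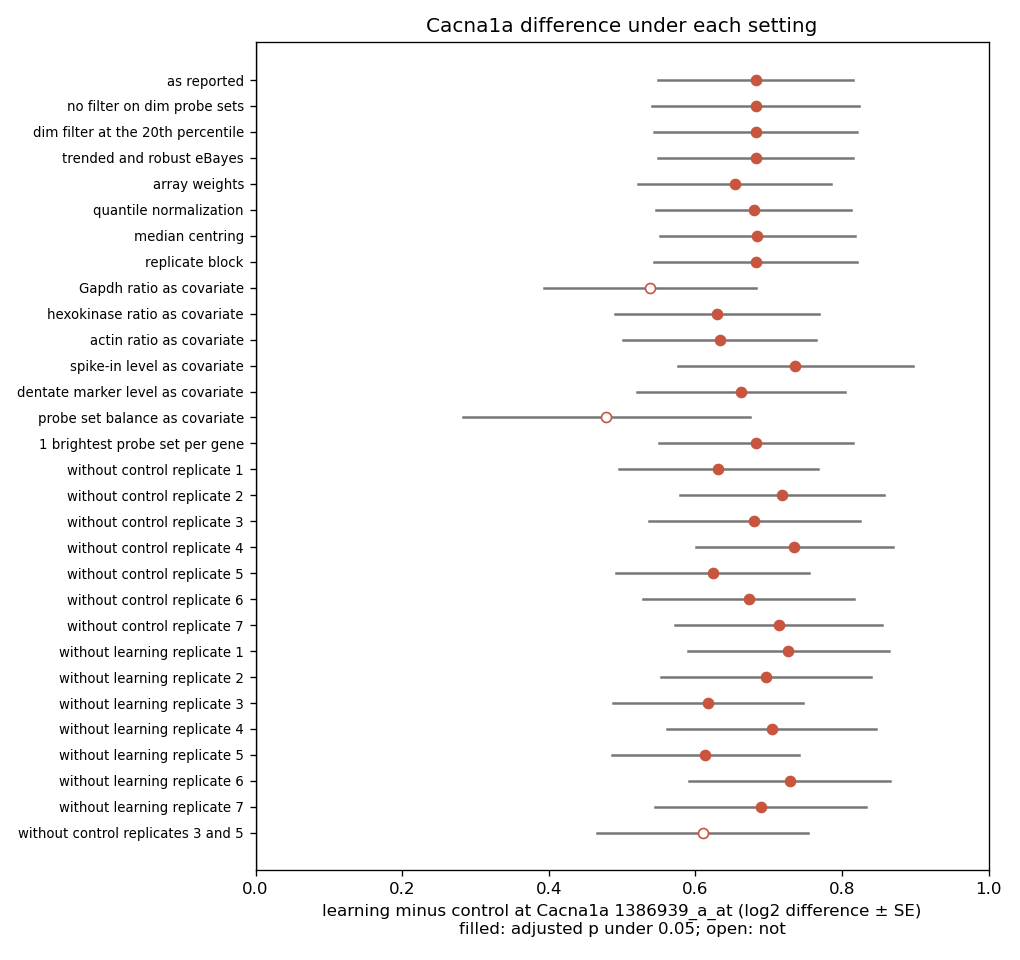
Learning minus control difference at Cacna1a probe set 1386939_a_at (log2, ± SE) as reported and under each alternative that tested it; filled points have an adjusted p under 0.05. All lie between 0.48 and 0.74, and the open points are the Gapdh ratio as covariate, the probe set balance as covariate, and the fit without control replicates 3 and 5.

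Among markers of the neighbouring choroid plexus, Ttr fell by 2.09 in the learning group (adjusted p = 0.0124 in limma). Igfbp2 (-0.70, adjusted p = 0.237) and Enpp2 (-0.03, adjusted p = 0.844) did not pass. Neither did Kcne2 (0.01, adjusted p = 0.935), whose mean of 3.99 lies close to the dim cutoff. Of 10 such genes 9 were on the array and these 4 were tested, and their mean level, which Ttr weighs on most, ran from 5.84 to 6.48 in learning and from 6.44 to 7.59 in control arrays (two-sided exact permutation p = 0.00117). Kl, Folr1, Cldn2, Aqp1 and Sostdc1 were dim. The part of this tissue in the Cacna1a result was not tested. The other 9 marker lists, for subfields, interneurons, glia and vessels, gave exact p-values of 0.0909 or more. The CA3 markers Grik4 (7.95) and Bok (8.85) were above the dim cutoff, as were all 6 CA3 markers on the array, but so were all 7 CA1 markers on it and 3 of 5 dentate markers. Of the CA3 markers Spock1 rose in the learning group (0.28, adjusted p = 0.0257 in limma). Elavl4 (0.24, adjusted p = 0.278), Homer3 (0.23, adjusted p = 0.493), Bok (0.01, adjusted p = 0.953), Grik4 (-0.02, adjusted p = 0.936) and Prss35 (-0.99, adjusted p = 0.643) did not pass. The part of CA3 content in the Cacna1a result was not tested. With the dentate marker level as covariate Cacna1a had 0.66 (adjusted p = 0.0312).

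Cacna1b encodes the N-type pore, the other main channel of presynaptic terminals. At probe set 1370444_at its level ranged from 7.88 to 8.10 (median 8.02) in control and from 7.77 to 8.08 (median 8.03) in learning arrays. The groups overlapped almost fully, and the difference of -0.01 (SE 0.05, adjusted p = 0.907) had a 95% confidence interval of -0.12 to 0.09. The second Cacna1b probe set was dim, as was the only one of Cacna1e, the R-type pore, at 2.50 in control and 2.51 in learning arrays.

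The L-type pores did not pass. Cacna1c, the main L-type channel of brain and heart, ranged from 6.41 to 6.82 (median 6.63) in control and from 6.64 to 6.71 (median 6.68) in learning arrays at 1370452_at. The learning arrays lay inside the control range, with an SD of 0.03 against 0.15, and the difference was 0.07 (SE 0.06, adjusted p = 0.556). It was 0.033 without control replicate 1, 0.034 without control replicate 2 and 0.10 without control replicate 5. Cacna1d, an L-type channel that opens at more negative voltages, ranged from 4.52 to 5.92 (median 5.51) in control and from 5.50 to 6.09 (median 5.55) in learning arrays at 1369086_a_at. Its spread was the widest of the tested control groups (SD 0.47), with control replicate 4 lowest at 4.52. Its difference of 0.23 (SE 0.18, adjusted p = 0.504) had a 95% confidence interval of -0.15 to 0.60, and without that array it was 0.08.

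Cacna1g encodes a T-type pore, which opens near rest, supports burst firing and needs no beta subunit. Its probe set, at a mean of 3.91, was the tested member nearest to the dim cutoff. It ranged from 3.87 to 3.98 (median 3.94) in control and from 3.85 to 3.93 (median 3.89) in learning arrays. The groups overlapped, with 1 of 7 learning arrays above the control mean, and the difference was -0.04 (SE 0.03, adjusted p = 0.515).

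Cacna2d1 encodes an alpha2delta subunit, the binding partner of gabapentin, which raises the number of channels at the membrane. At 1369649_at the control arrays read 5.87, 6.02, 6.16, 5.83, 5.73, 6.01 and 6.07 for replicates 1 to 7. The learning arrays read 6.37, 6.26, 6.43, 5.65, 6.51, 5.75 and 6.66. In the learning group 5 arrays lay above every control array, while replicate 4 lay below every control array and replicate 6 above only the lowest. The difference of 0.28 (SE 0.14, 95% confidence interval -0.03 to 0.58) did not pass (adjusted p = 0.294).

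The beta subunits chaperone the pore to the membrane and shift its gating. Cacnb2 was tested at 3 probe sets, with differences of 0.10 (SE 0.07) at 1370178_at, 0.20 (SE 0.13) at 1374717_at and 0.10 (SE 0.07) at 1388023_a_at. None passed (adjusted p = 0.504, 0.421 and 0.494). Single arrays moved each of them. Without learning replicate 7 the difference at 1370178_at was 0.16 (adjusted p = 0.0578), without control replicate 4 that at 1374717_at was 0.13, and without learning replicate 5 that at 1388023_a_at was 0.023. At 1370178_at the control arrays ran from 8.00 to 8.12 and the learning arrays from 7.75 to 8.32, with replicates 1 to 5 of the learning group above every control array and replicate 7 below every one. At 1374717_at the ranges were 6.18 to 7.14 in control and 6.52 to 7.03 in learning arrays, one inside the other. At 1388023_a_at the 2 groups lay between 4.26 and 4.31 except for control replicate 5 at 4.12 and learning replicate 5 at 4.79. The pairs of Cacnb2 probe sets were not called as moving differently (-0.10, adjusted p = 0.607, and 0.000027, adjusted p = 0.9998).

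Cacnb3, the beta subunit often found with N-type channels, ranged from 7.82 to 8.18 (median 7.93) in control and from 7.87 to 8.10 (median 8.00) in learning arrays. Its difference was -0.0030 (SE 0.06, 95% confidence interval -0.12 to 0.12, adjusted p = 0.984). Cacnb4, the beta subunit altered in the lethargic mouse, had 1 dim probe set, at 2.64 in both groups.

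**Figure D4:**
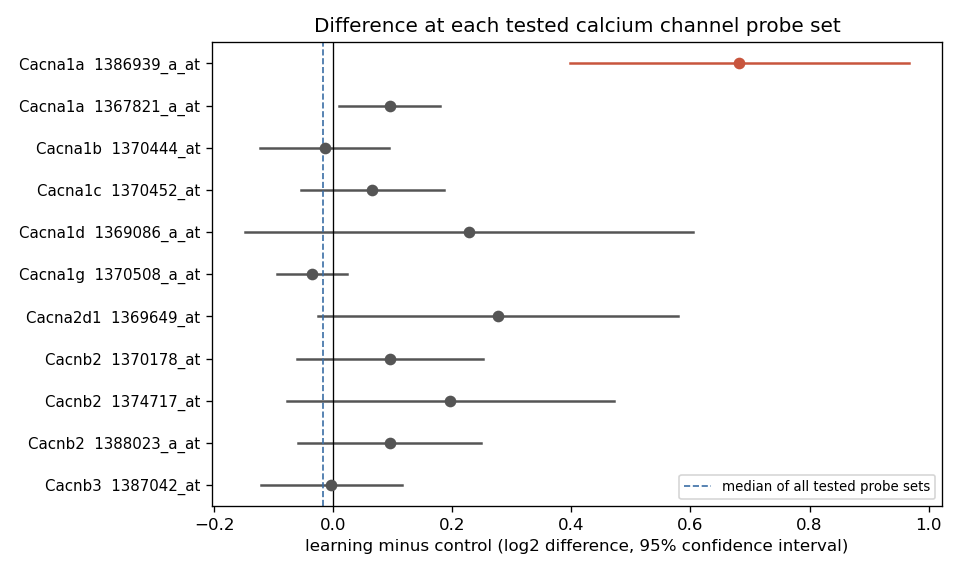
Learning minus control difference with its 95% confidence interval (log2) at the 11 tested calcium channel probe sets; the dashed line is the median of all tested probe sets (-0.02). The interval of Cacna1a 1386939_a_at runs from 0.40 to 0.97, and that of its other tested probe set from 0.01 to 0.18.

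The 8 dim probe sets were close to flat. In a fit without a filter their differences ran from -0.03 (Cacna1c 1370451_a_at) to 0.01 (Cacna1b 1371175_a_at), with SDs within groups of 0.00365 to 0.0821. The lowest adjusted p among them was 0.674. At such levels the deposited values barely vary between arrays, and a change was not measurable at these probe sets. Cacna1e and Cacnb4 had no other probe set.

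The 5 genes whose deviations from their group means followed those of Cacna1a 1386939_a_at most closely over the 14 arrays, out of 7964 probe sets of other genes, were Chrm3, Zbtb22, Fhl1, Myo5b and Get3. Chrm3 encodes a muscarinic acetylcholine receptor and Myo5b an actin motor of membrane recycling. Their Pearson r was 0.83, 0.82, 0.80, 0.79 and 0.78, and these are the highest of many and only a description. By ranks (Spearman) Zbtb22 had 0.64 and the others 0.82 to 0.87. None of the 5 was called between groups. Chrm3 had a difference of 0.45 (SE 0.14, adjusted p = 0.0922) and the others lay between -0.18 and 0.01. Among the channel probe sets the same measure was 0.63 for the second tested Cacna1a probe set, 0.58 for Cacnb2 1388023_a_at and 0.46 for Cacna2d1, and between -0.23 and 0.07 for the rest. At Cacnb2 1388023_a_at only control replicate 5 (4.12) and learning replicate 5 (4.79) stood apart from the other arrays. These were also the lowest control and the highest learning array at Cacna1a 1386939_a_at.

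Genes that work with these channels were described at the brightest tested probe set of each, where 1.59% of 6836 genes were called higher and 0.980% lower, with a median difference of -0.03 and 36.1% above 0. Unadjusted p-values lay under 0.05 at 18.6% of these genes. Of a list of other channel subunits and relatives, 6 of 15 on the array were tested and 0 passed in limma. Among the 6, Nalcn (0.03), Cacng2 (0.07) and Cacng3 (0.11) are relatives rather than established subunits of these channels. Cacna1i, a further T-type pore, had 0.14 (unadjusted p = 0.0126, adjusted p = 0.131), the only one under 0.05 unadjusted. Cacna2d3, an alpha2delta subunit and the brightest of them, had -0.0098. The median of the 6 was 0.05, and 5 lay above 0.

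Of 23 tested proteins that bind or regulate the channels, 2 rose, 0 fell and 21 did not pass, with a median of 0.0058. Unadjusted, 7 of the 23 lay under 0.05, 4 higher and 3 lower. Camk2a, the calcium-dependent kinase that acts on L- and P/Q-type channels, rose by 0.76 (SE 0.15, adjusted p = 0.0150). Nedd4, a ubiquitin ligase that can lower channel number, rose by 0.50 (SE 0.13, adjusted p = 0.0454). Calm2, one of the genes of calmodulin and the brightest of the list, had 0.11 (adjusted p = 0.0941).

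Of 13 tested genes of the release machinery at the channels, 0 passed in limma, with a median of 0.03. Unadjusted, 8 of the 13 lay under 0.05, 6 higher and 2 lower. Snap25, the membrane SNARE protein and the brightest, had 0.12 (SE 0.03, adjusted p = 0.0820). Of 14 tested genes of calcium release, uptake and extrusion, Atp2b1, a calcium pump of the plasma membrane, rose by 0.21 (SE 0.05, adjusted p = 0.0415), and the other 13 did not pass. Unadjusted, 4 of the 14 lay under 0.05, all 4 higher. The median of that list was -0.02, and its brightest gene, the endoplasmic reticulum pump Atp2a2, had -0.01.

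**Figure D5:**
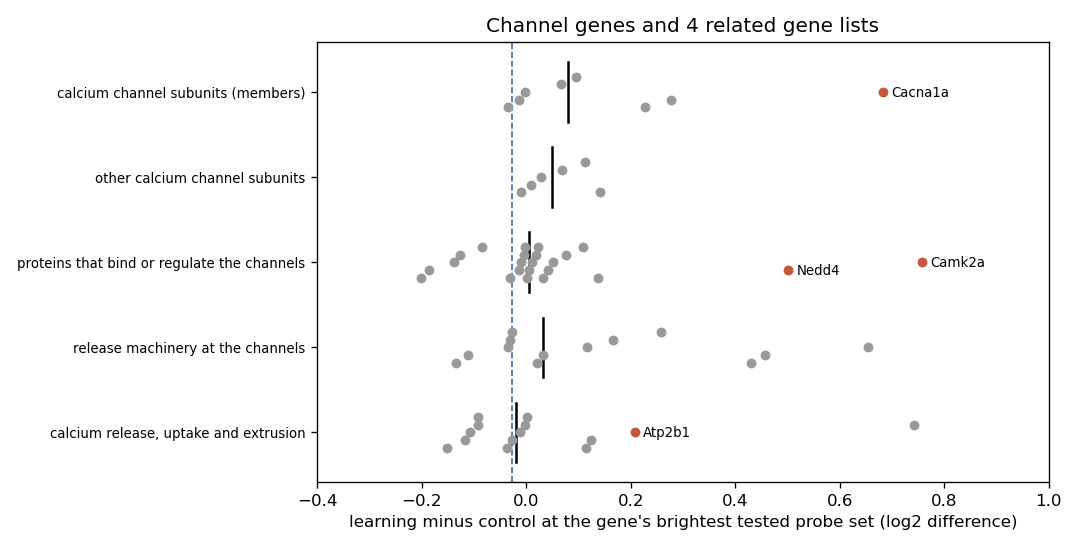
Learning minus control difference (log2) at the brightest tested probe set of each channel gene and of the genes of 4 related lists; red points are called, black bars are list medians and the dashed line is the median of all genes (-0.03). Cacna1a (0.68), Camk2a (0.76), Nedd4 (0.50) and Atp2b1 (0.21) are the called genes.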

How the data were processed

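Total RNA of CA3 was labelled with biotin and hybridised to Affymetrix RAE230A arrays, per the labels' protocols. The deposited values are log2 expression levels that the authors made with GCRMA, per the submitters' processing notes. No version or setting is given in the sources used here. That the scale is log2 was read from the range of the values. GCRMA corrects background by probe sequence and flattens dim probe sets.

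Column means were 5.44 and column medians 5.07 to 5.09. Any 2 arrays correlated at 0.983 to 0.995 across tested probe sets, with 0 identical columns. Arrays have no read depth, and their number limits the precision. No scan date was used here, so no batch was tested.

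Genes came from GEO's platform annotation, with symbols updated by Entrez ID against RefSeq (GRCr8). A single gene was named for 12783 probe sets, and more than 1 for 312. The 57 control probe sets and 6346 dim ones were left out. For the other 9520, lmFit and eBayes were run without covariates (R 4.3.3, limma 3.58.1). Pairs of probe sets of a gene (the brightest minus each other one) were fitted the same way, and the procedure was tested on simulated data. Single values per array were compared by exact permutation tests (two-sided, unadjusted). The labels call the samples biological replicates.

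The members and gene lists were chosen with earlier results of these data known. Named genes were all members, and of each related list up to 3 called genes per direction and the brightest gene. Cacna1i, Nalcn, Cacng2 and Cacng3 were named besides. For the member of lowest p, the 5 most similar genes were named. Alternatives changed the dim filter, variance moderation, array weights, normalization, covariates, the replicate block and the arrays used. Leaving out control replicates 3 and 5 together was chosen after seeing the data.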

Additional observations from a re-analysis of the deposited data

Results flagged for a closer look

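Single arrays stood far from the others of their group in 6 of 38 groups of 7 arrays (19 channel probe sets in 2 groups), measured by the gap to the nearest array over the group's whole range against Dixon's critical value. Chance flags about 1 group in 20. At Cacnb2 1388023_a_at learning replicate 5 was high at 4.79 (next 4.30) and control replicate 5 was low at 4.12 (next 4.26). Learning replicate 5 was also high at Cacna1d 1369086_a_at, at 6.09 (next 5.64). Learning replicate 3 was low at Cacna1b 1370444_at, at 7.77 (next 7.99), and learning replicate 7 at Cacnb2 1370178_at, at 7.75 (next 8.08). Control replicate 1 was high at the dim Cacna1c 1370451_a_at, at 3.03 (next 2.84).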

How the results depend on the processing

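The Cacna1a call at 1386939_a_at, the 1 channel probe set called, held in 26 of 30 alternatives. The number of channel probe sets called was 0 with the Gapdh ratio or the probe set balance as covariate, without control replicates 3 and 5, and with the dim filter at the 60th percentile, which left that probe set untested. Within-gene calls of channel genes, 1 as reported, were 0 with the Gapdh ratio or the balance as covariate and at the 60th percentile, 3 without a filter and 2 with the filter at the 20th percentile, where more pairs were tested. Arrays with the same replicate number correlated at -0.16 to 0.13 once group means were removed, 2 of 7 over 0.1. For 2 of 7 control arrays the learning array of the same number was the best match. These values cannot settle whether the animals were paired. With the replicate block Cacna1a kept 0.68 (adjusted p = 0.0346) and 313 probe sets were called.

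Over all probe sets, 319 calls became 158 without a filter, 39 with the Gapdh ratio, 169 with the spike-in level, 177 with the hexokinase ratio, 154 with the dentate level, 0 with the balance (limma, 849 at an unadjusted p under 0.05), 132 with 1 probe set per gene and 145 without control replicates 3 and 5. They ran from 163 to 352 with 1 array left out, and dropped most without control replicates 1, 2 and 3 (163, 166 and 167) and learning replicates 3, 4, 6 and 7 (188, 164, 171 and 188). The cause was not tested.

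Values near 0 changed sign without being called. Cacnb3 had 0.022 with array weights, the hexokinase ratio or the actin ratio, 0.019 with the dentate level, 0.0022 with quantile normalization, 0.12 with the balance and 0.058 without control replicates 3 and 5. Cacna1b had 0.0042 with the Gapdh ratio, 0.0041 with the hexokinase ratio, 0.034 with the balance and 0.0094 without control replicates 3 and 5. Cacna1a 1367821_a_at had -0.0074 with the balance and Cacnb2 1388023_a_at -0.0020 with the Gapdh ratio. The pair of Cacnb2 1370178_at and 1388023_a_at had -0.0028 with array weights, -0.00057 with quantile normalization, -0.073 with the spike-in level and -0.0063 with the dentate level. With 1 array left out, Cacnb3 ran from -0.030 to 0.029, Cacna1b from -0.038 to 0.025, that pair from -0.036 to 0.064, and the mean levels of CA1 markers from -0.077 to 0.082, CA3 markers from -0.14 to 0.038 and interneuron markers from -0.061 to 0.017.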

Other observations

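Atp2b2, Atp2a2 and Camk2a rose at a second, dimmer probe set, which lies outside the rule for named genes, and they were named after their values were seen. Atp2b2, a plasma membrane calcium pump, rose by 0.53 (SE 0.09, adjusted p = 0.00718) at such a probe set and had -0.0019 at its brightest (adjusted p = 0.988). Atp2a2, the endoplasmic reticulum pump, rose by 0.22 (SE 0.05, adjusted p = 0.0339) there and had -0.01 at its brightest. Such a split is not particular to these genes. Of all 1130 pairs of probe sets of a gene 17.6% were called as moving differently. In 2.92% of all pairs the brightest moved up relative to the other, and in the rest of those called the other did. Camk2a rose at another probe set as well, by 0.54 (SE 0.13, adjusted p = 0.0381). Ryr2, the calcium release channel of internal stores, had 0.74 (SE 0.21, adjusted p = 0.0645) at its brightest probe set and did not pass.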
